A study of Drosophila melanogaster with 8 samples.

Results

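XHet and YHet are the scaffolds of FlyBase release 5 that hold sequence assigned to the heterochromatin of the X and of the Y chromosome but not joined to an assembled arm. The members are all HP1a-enriched regions that the authors placed on these scaffolds, chosen by the sequence name alone. There were 203 of them among the 19696 regions of the 4 replicate lists, 36 on XHet and 167 on YHet. The authors' further list for all replicates together is called the combined set, and 55 of its 5697 regions were members, 13 on XHet and 42 on YHet. XHet is 204112 bp long and YHet 347038 bp.

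HP1a was mapped by chromatin immunoprecipitation and sequencing (ChIP-seq) in wild-type embryos of the Oregon-R strain of Drosophila melanogaster, labelled 14 to 16 h old. All 8 samples share this strain, genotype and stage, and all are labelled with 1.8% formaldehyde. Of these samples, 4 are immunoprecipitated with the anti-HP1a antibody wa191. The other 4 are inputs, each the control of the ChIP sample with its number. The labels give no sex of the embryos. Whether each replicate was a separate embryo collection is also not stated, so the spread between them may be technical. The submitters' experiment numbers of replicates 1 to 4 are 1914, 1916, 2026 and 2027. Replicates 1 and 2 stood apart from replicates 3 and 4 on XHet, above all at its right end. Replicate 1 had the lowest covered share of YHet by a wide margin.

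HP1a is the product of a gene whose mutations suppress position-effect variegation. Through its chromodomain it recognises methylated histone H3, and it marks the heterochromatin around centromeres. The Y chromosome of Drosophila is almost wholly heterochromatic, is carried by males only and holds a small number of genes, most of them needed for sperm formation and some with very long introns filled with repeats. The heterochromatin of the X flanks its centromere and includes one of the ribosomal RNA gene arrays, the other of which lies on the Y. The deposited lists carry no gene names, and genes were not placed on these scaffolds here.

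The scaffolds differed in how HP1a enrichment was laid out. On XHet most enriched bases lay in a few wide blocks toward the right-hand end. On YHet the enriched regions were more numerous and were spread along the whole scaffold. In the replicate lists, though not in the combined set, the median YHet region was also narrower. The covered share, the percentage of a scaffold's bases that lie in enriched regions, had overlapping ranges on the scaffolds.

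**Figure D1:**
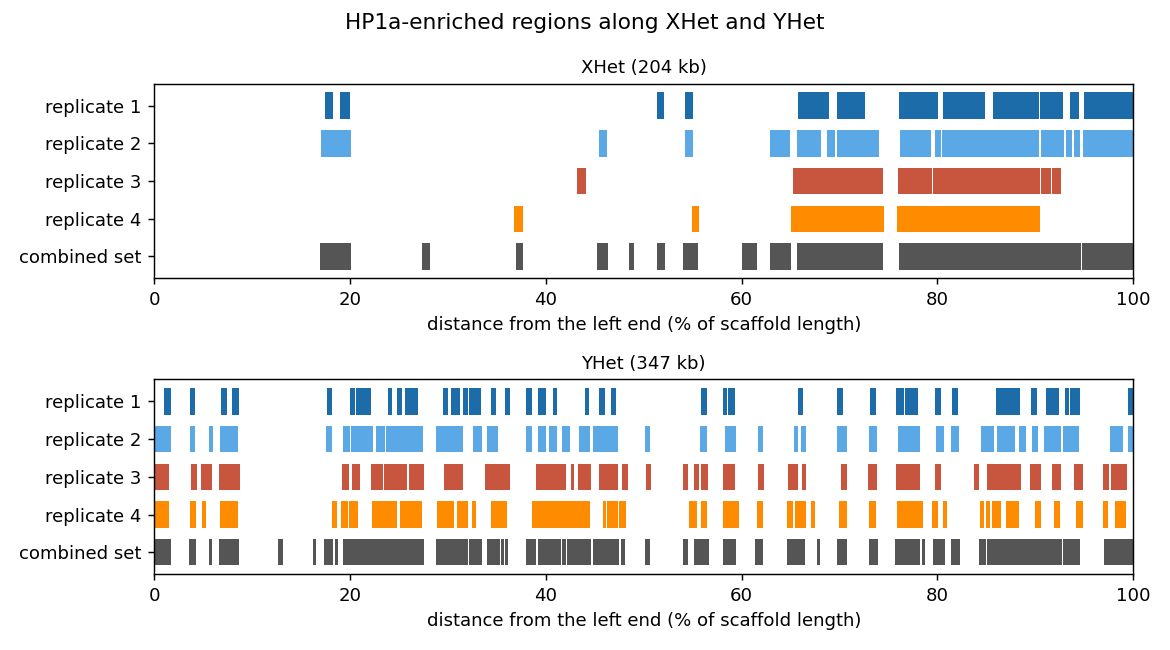
Enriched regions along XHet (upper panel) and YHet (lower panel), with the distance from the left end as a percentage of scaffold length on the x axis and a row for each replicate list and the combined set. XHet is nearly empty over its left part and filled over its right part, and its last stretch is filled in replicates 1 and 2 but empty in replicates 3 and 4, whereas YHet regions are spread from end to end.

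XHet was covered over 30.3% of its bases in replicate 1, 36.9% in replicate 2, 26.5% in replicate 3 and 25.6% in replicate 4, a mean of 29.8% ± 5.13 (SD, n = 4). YHet was covered over 28.0% in replicate 1, 43.3% in replicate 2, 42.7% in replicate 3 and 41.7% in replicate 4, a mean of 39.0% ± 7.32 (SD, n = 4). The ranges of the scaffolds overlapped, and XHet had the lower share in 3 of 4 replicates. The ratio of XHet to YHet was 1.08, 0.852, 0.620 and 0.613 in replicates 1 to 4. On the log2 scale its mean was -0.38 ± 0.39 (SD, n = 4; exact permutation by two-sided sign flips, p = 0.25, Benjamini-Hochberg adjusted p = 0.28 over 11 tests). This mean was about the size of its SD and the sign was not the same in all replicates, so no difference in covered share was established. With 4 replicates the sign-flip test cannot give a p below 0.13, so none of the comparisons here could pass 0.05.

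The number of regions separated the scaffolds in every replicate. XHet had 12, 14, 6 and 4 regions in replicates 1 to 4, and YHet had 38, 39, 46 and 44. Per Mb of sequence this was 58.8, 68.6, 29.4 and 19.6 on XHet, against 109, 112, 133 and 127 on YHet, and the ranges did not overlap. The mean log2 ratio of XHet to YHet was -1.62 ± 0.97 (SD, n = 4; lower in all 4, exact permutation p = 0.13, adjusted p = 0.17 over 11 tests). By replicate the ratio was 0.537, 0.610, 0.222 and 0.155.

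In the replicate lists XHet regions were the wider ones by their median. Their median width was 5333 bp in replicate 1, 4524 bp in replicate 2, 4514 bp in replicate 3 and 10652.5 bp in replicate 4. The median width of YHet regions was 2054 bp, 2927 bp, 2412 bp and 2448 bp in the same order. All 4 XHet medians lay above all 4 YHet medians, at ratios of 2.60, 1.55, 1.87 and 4.35. The mean log2 ratio was 1.26 ± 0.65 (SD, n = 4; exact sign-flip permutation p = 0.13, adjusted p = 0.17 over 11 tests). The XHet median of replicate 4 rests on 4 regions. Regions of at least 5 kb held 78.9%, 69.4%, 88.8% and 94.0% of the covered bases of XHet in replicates 1 to 4, against 14.0%, 51.6%, 30.8% and 42.0% on YHet. The combined set did not show this contrast: its median width was 3130 bp on XHet and 3178.5 bp on YHet, and regions of at least 5 kb, 4 of 13 on XHet and 15 of 42 on YHet, held 75.9% and 69.0% of its covered bases.

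**Figure D2:**
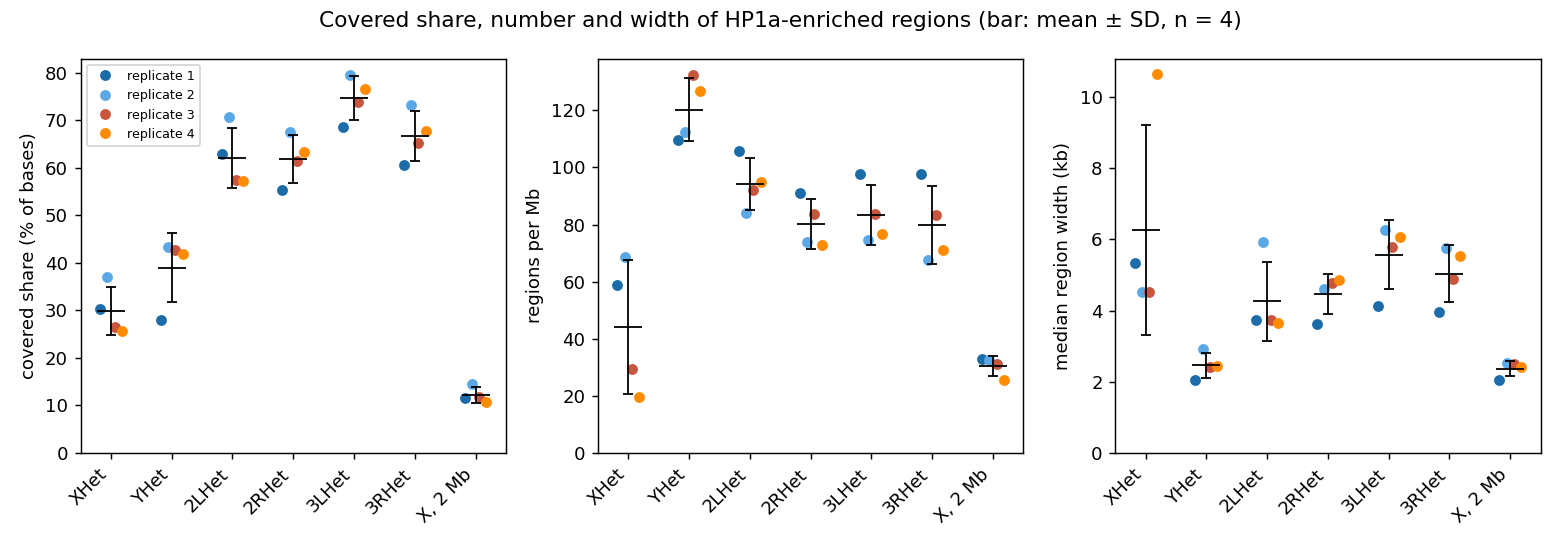
Covered share (left, % of bases), regions per Mb (middle) and median region width (right, kb) on XHet and YHet, the 4 autosomal Het scaffolds and the centromere-side 2 Mb of X, with 1 point per replicate and bars for the mean ± SD (n = 4). XHet and YHet have lower covered shares than every autosomal Het scaffold, YHet has the most regions per Mb, and the median width on XHet in replicate 4, at 10652.5 bp, lies far above the other 3 replicates.

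On XHet the enrichment lay almost wholly to the right of the midpoint, a split chosen after the lists had been seen. The left part, up to base 102056, was covered over 3.52%, 7.67%, 1.98% and 1.80% in replicates 1 to 4, and the right part over 57.1%, 66.1%, 51.0% and 49.4%. The right part held 94.1% ± 3.19 of all covered bases of XHet (SD, n = 4). On YHet the part to the right of the midpoint held 44.5% ± 2.10 of the covered bases, and the parts to the left and right were covered over 43.4% ± 9.15 and 34.5% ± 5.71. In steps of 50 kb from the left, XHet was covered over 4.94% ± 6.11, 2.70% ± 1.84, 35.3% ± 4.27 and 74.7% ± 9.93 (SD, n = 4), leaving a last piece of 4.112 kb that was filled in replicates 1 and 2 and empty in replicates 3 and 4. The 7 steps of YHet, the last of them 47.0 kb long, had mean shares between 25.7% and 54.3%.

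The longest stretches without a region in any replicate were on XHet from 1 to 34712, from 40996 to 75072 and from 113536 to 128402, spans of 34712, 34077 and 14867 bp (FlyBase release 5). The first of these was also empty in the combined set but for 0.202% of its bases. On YHet the longest such stretch ran from 30347 to 60906, a span of 30560 bp, and the next were 11085 bp from 176189 to 187273 and 8422 bp from 216054 to 224475. Assembly gaps and repeats were not taken out of these lengths, and their part in the empty stretches was not tested. Bases covered in no replicate made up 56.9% of XHet and 39.6% of YHet.

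Stretches covered in all 4 replicates were longer on XHet. They made up 17.8% of its bases and 14.8% of YHet. XHet had 7 of them, with a median of 5696 bp, and YHet had 37, with a median of 1370 bp. The longest on XHet spanned 174976 to 184443 (9468 bp), 164535 to 173309 (8775 bp) and 155418 to 161848 (6431 bp). The longest on YHet spanned 266102 to 270836 (4735 bp), 90112 to 93384 (3273 bp) and 302104 to 304903 (2800 bp). Of the bases covered in at least 1 replicate, 41.3% were covered in all 4 on XHet and 24.5% on YHet.

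Agreement in covered bases was measured by the Jaccard index, the bases covered in both of a pair of replicates divided by those covered in either. On XHet it averaged 0.623 over the 6 pairs and ranged from 0.512 to 0.821. On YHet it averaged 0.502 and ranged from 0.359 to 0.657. On the 4 autosomal Het scaffolds pooled it averaged 0.777 and ranged from 0.692 to 0.872. The index tends to be higher where coverage is wider, so these levels are a description. On XHet replicates 1 and 2 shared 0.723, while the pair of replicates 3 and 4 reached 0.821, both above all 4 pairs across them, which lay between 0.512 and 0.580. The pooled autosomal Het scaffolds showed the same order, with 0.803 for replicates 1 and 2, 0.872 for replicates 3 and 4, and 0.692 to 0.795 across them. On YHet replicates 3 and 4 shared 0.657, while replicates 1 and 2 shared 0.528, less than the 0.571 of replicates 2 and 3. The lowest YHet values were those of replicate 1 with replicates 3 and 4, at 0.388 and 0.359.

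On YHet the regions of replicate 1 mostly overlapped those of the other replicates but were narrower on average. There were 38 of them, of which 37 were overlapped by at least 1 bp in replicate 2, 31 in replicate 3 and 33 in replicate 4, and 30 in all of these. Replicates 2 to 4 each covered between 41.7% and 43.3% of YHet, so many overlaps of 1 bp would arise without shared places. The same counts over the whole list of replicate 1 were not made. The mean region width of replicate 1 on YHet was 2559 bp, against 3856, 3225 and 3293 bp in replicates 2 to 4. Of the bases covered in all 3 other replicates it covered 57.5%, whereas replicates 2, 3 and 4 covered 91.3%, 92.2% and 83.4% of the bases shared by their own 3 others. On the autosomal Het scaffolds the mean width was also lowest in replicate 1, at 6385 bp, against 10000.4, 7854 and 9177 bp in replicates 2 to 4. The part of read depth or background in this was not tested. Without replicate 1, the mean log2 ratio of XHet to YHet in covered share was -0.54, with XHet lower in 3 of 3 replicates. Replicate 1 was the only replicate with a ratio above 1, at 1.08. Leaving it out therefore fixed the shared direction in advance, which is no separate support.

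The 2 XHet regions of the combined set that were overlapped in all 4 replicates were its widest. The wider ran over 34550 bp from 155267 to 189816 with a score of 1.43, and 90.1%, 95.6%, 96.1% and 84.9% of it was covered in replicates 1 to 4 (mean 91.7% ± 5.30, SD, n = 4). The other ran over 17882 bp from 134018 to 151899 with a score of 1.14, and was covered over 69.0%, 85.6%, 100% and 100%. The replicates divided these blocks differently. The wider block was 1 region in replicate 4 and overlapped 4 regions in each of the other replicates. The score is the authors' own value per region, without a stated unit or scale, and is used here only to rank and describe regions within a list.

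The highest score on XHet in the combined set belonged to a region that was present in only 2 of the replicates. This region, 10678 bp from 193435 to the scaffold's end at 204112, scored 2.02, at percentile 94.9 of the combined set. It was covered over 95.4% in replicate 1 and 98.4% in replicate 2, and over 0% in replicates 3 and 4. In replicates 1 and 2 it was also the highest-scoring XHet region, at 2.07 and 2.06, the 91.9th and 93.7th percentile of those lists. In replicate 3 the last covered base of XHet was 189145 and in replicate 4 it was 184588, so that 14967 and 19524 bp at the end were empty. The adjoining combined-set region, 3223 bp from 189928 to 193150, and one of 6457 bp near the left end, from 34643 to 41099, were likewise overlapped in replicates 1 and 2 and in neither of the others. The region near the left end was covered over 55.6% in replicate 1 and 97.3% in replicate 2. A further XHet region, 3121 bp from 110310 to 113430 with a combined score of 1.11, was covered over 47.6%, 53.2%, 0% and 39.1% in replicates 1 to 4.

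The right end of XHet moved the comparison with YHet. With the last 20 kb of XHet left out, an alternative chosen after seeing the data, XHet was covered over 24.3%, 30.9%, 26.9% and 28.1% in replicates 1 to 4, with a mean of 27.5% ± 2.74 (SD, n = 4). Its ratio to YHet was then 0.866, 0.712, 0.629 and 0.674, below 1 in every replicate. The stretch left out was largely filled in replicates 1 and 2 and much emptier in replicates 3 and 4. The lower ratios of replicates 1 and 2 followed from that choice, so the shared direction is not separate support. Within the experiment-number pairs on full scaffolds, the mean log2 ratio was -0.06 in replicates 1 and 2 and -0.70 in replicates 3 and 4. The difference between these pairs cannot be told apart from whatever else distinguishes the experiments.

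**Figure D3:**
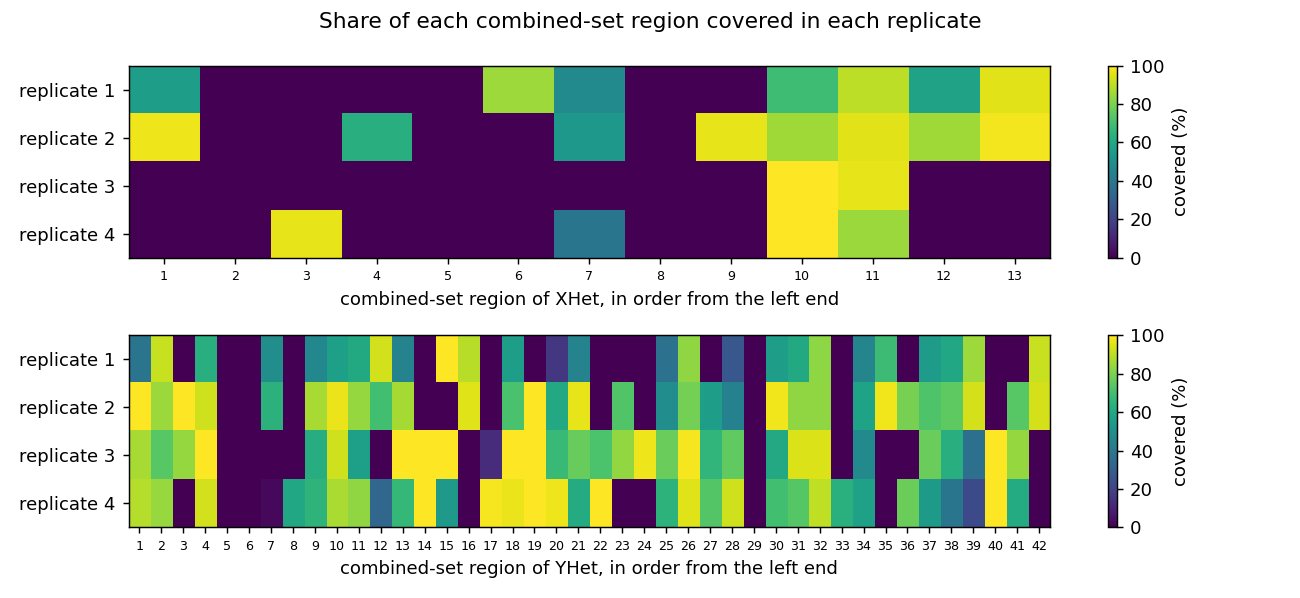
Share of each combined-set region (columns, in order from the left end) covered in each replicate (rows), from 0% to 100% by colour, for the 13 regions of XHet (upper panel) and the 42 of YHet (lower panel). On XHet only the blocks in columns 10 and 11 are covered in all 4 replicates and the last column is covered in replicates 1 and 2 only, whereas 20 YHet columns have some cover in all 4.

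Counted as regions, 2 of the 13 combined-set regions of XHet were overlapped in all 4 replicates (15.4%, 95% Wilson interval 4.33% to 42.2%). On YHet it was 20 of 42 (47.6%, 33.4% to 62.3%). Over the whole combined set 47.1% of regions were overlapped in all 4 replicates, and on the 4 autosomal Het scaffolds 65.4% (61.2% to 69.4%). The YHet share was thus near that of the whole set. These intervals cover counting error only, and neighbouring regions are not independent. Counted as bases, regions overlapped in all 4 replicates made up 57.2% of the combined set on XHet and 77.3% on YHet, against 75.4% over the whole set. On the 4 autosomal Het scaffolds this base share was 93.5%, above both. Regions overlapped in replicates 1 and 2 and in neither 3 nor 4 numbered 3 of 13 on XHet and 3 of 42 on YHet. Their share was 9.02% over the whole set and 2.13% on the autosomal Het scaffolds. The opposite pattern was found in 0 of 13 on XHet and 4 of 42 on YHet, against 3.12% of the whole set and 5.80% on the autosomal Het scaffolds. No test was made of these counts, since the combined set is named as the set of these same replicates. An overlap of 1 bp is a weak criterion: where at least 50% of each of the overlapping regions had to be shared, 0 XHet and 5 YHet regions were found in all 4 replicates, against 30.8% of the whole set.

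Among the strongest YHet regions, the one from 22986 to 29931, 6946 bp with a combined score of 2.09, was covered over 62.5%, 92.6%, 100% and 93.0% in replicates 1 to 4. The region from 241895 to 245708, 3814 bp with a combined score of 1.97, was covered over 55.9%, 97.7%, 60.5% and 69.8%. Both were present in every replicate, and replicate 1 covered least of each. The first of these sites also held the highest-scoring YHet region of replicate 2, at 2.20. In replicate 1 the highest was a region of 1368 bp from 201520 to 202887 with a score of 3.23, the 99.8th percentile of that list. The combined-set region that holds it, 4590 bp from 201454 to 206043, was covered over 83.3%, 78.9%, 98.7% and 95.1% in replicates 1 to 4. Its highest overlapping score stood at the 99.8th, 84.6th, 73.7th and 55.5th percentile of those lists. The regions with these scores were 1368, 3661, 4531 and 5573 bp wide, so their ranks are those of unlike segments. Replicate 1 had a further region at this site, from 203286 to 205742, at percentile 67.2. The site was thus shared, but the rank of its highest score was not.

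The other 3 of the 5 highest combined scores on YHet belonged to regions of about 1 kb that were overlapped in 1 replicate or in none. The highest of all, 2.53 for 1068 bp from 234780 to 235847, had no overlap in any replicate, and the nearest replicate region lay 679 bp away, in replicate 4. The region from 64187 to 65187, 1001 bp with a score of 2.03, and that from 271989 to 273073, 1085 bp with 1.89, were overlapped only in replicate 4, over 59.9% and 63.4%. All 3 were narrower than 1301 bp, the smallest width in any replicate list.

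The widest YHet region of the combined set spanned 15379 bp from 295228 to 310606, of which the replicates covered 64.8% ± 11.7 (SD, n = 4). The next were neighbours, 66761 to 81621 (14861 bp, 65.3% ± 16.6 covered) and 81663 to 95438 (13776 bp, 83.3% ± 18.4 covered). No replicate list had a YHet region of more than 9807 bp, found in replicate 2 from 99715 to 109521. On XHet the widest regions of the replicates were 10183, 20351, 22295 and 29647 bp in replicates 1 to 4. At the right end of YHet, the combined-set region of 2125 bp from 344914 to 347038 had 91.6% of its bases covered in replicate 1, 93.4% in replicate 2 and 0% in replicates 3 and 4. The regions of replicates 1 and 2 there ran past the scaffold's end as deposited and were clipped, as were those at the end of XHet. Over the last 10 kb of YHet the replicates were not split in this way, at 19.5%, 67.3%, 68.0% and 50.3%.

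By rank of score within a list, YHet regions stood above XHet regions in 3 of 4 replicates. The median percentile of XHet regions was 53.8, 56.8, 70.2 and 67.0 in replicates 1 to 4, and that of YHet regions was 79.9, 80.8, 67.6 and 74.6. XHet minus YHet was -26.1, -24.1, 2.61 and -7.52 percentile points in that order. The mean of -13.8 ± 13.7 (SD, n = 4) was about the size of its SD, and the sign was not the same in all replicates (exact sign-flip permutation p = 0.25, adjusted p = 0.28 over 11 tests). In the top 25% of their list were 2 of 12, 2 of 14, 2 of 6 and 0 of 4 XHet regions, against 21 of 38, 25 of 39, 16 of 46 and 21 of 44 YHet regions.

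**Figure D4:**
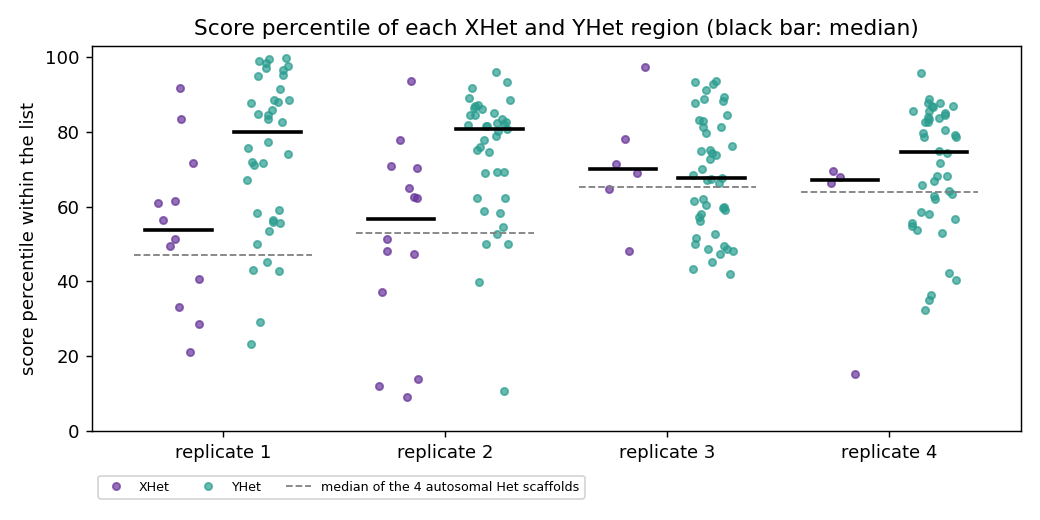
Percentile of the authors' score within its own list (y axis) for every XHet and YHet region of replicates 1 to 4 (x axis), with 1 point per region and a black bar at the median; the dashed line is the median of the 4 autosomal Het scaffolds. XHet medians lie well below YHet medians in replicates 1 and 2, at 53.8 and 56.8 against 79.9 and 80.8, and slightly above in replicate 3, at 70.2 against 67.6.

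XHet and YHet were both covered less than the autosomal heterochromatin scaffolds 2LHet, 2RHet, 3LHet and 3RHet, which pooled were covered over 61.1%, 72.7%, 65.9% and 68.2% in replicates 1 to 4. No replicate of XHet or YHet reached the lowest of these values. Assembly gaps, repeats and the copy number of the sex chromosomes were not corrected for. Their part in the lower covered shares was not tested. The ratio to the pooled autosomal scaffolds was 0.445 ± 0.0664 for XHet and 0.579 ± 0.0829 for YHet (SD, n = 4). The mean log2 ratios were -1.18 ± 0.22 and -0.80 ± 0.22, each below 0 in every replicate (exact permutation p = 0.13, adjusted p = 0.17 over 11 tests). Against the centromere-side 2 Mb of the assembled X, which was covered over 11.5%, 14.5%, 11.9% and 10.8%, XHet was covered 2.64-, 2.54-, 2.24- and 2.37-fold as widely (mean log2 ratio 1.29 ± 0.11, higher in all 4, exact permutation p = 0.13, adjusted p = 0.17). Against the last 1 Mb of X alone the mean log2 ratio was 0.67, with all 4 replicates above 0.

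YHet regions were narrower than those of the autosomal Het scaffolds, whose median widths were 3797, 5540, 5209 and 5487 bp in replicates 1 to 4. The ratio was 0.541, 0.528, 0.463 and 0.446, a mean log2 ratio of -1.02 ± 0.14 (SD, n = 4; exact sign-flip permutation p = 0.13, adjusted p = 0.17 over 11 tests). XHet regions were wider than the autosomal ones in replicates 1 and 4 and narrower in replicates 2 and 3, at ratios of 1.40, 0.817, 0.867 and 1.94 (mean log2 ratio 0.24 ± 0.59, exact sign-flip permutation p = 0.62, adjusted p = 0.62), and without replicate 4 the mean log2 ratio was -0.003. The median score percentile of YHet regions exceeded that of the autosomal scaffolds by 32.9, 27.9, 2.19 and 10.6 points in replicates 1 to 4. That of XHet regions exceeded it by 6.85, 3.87, 4.80 and 3.12 points. Every replicate gave a positive sign for both differences from the pooled scaffolds (exact permutation by sign flips, p = 0.13, adjusted p = 0.17 over 11 tests). The sign depended on the scaffold: against 2LHet alone, XHet differed by -1.27, -1.99, -4.25 and -8.12 points, and YHet differed by 24.8, 22.1, -6.86 and -0.59 points. Against 3LHet, XHet was lower in replicate 4 and YHet in replicate 3, and against 2RHet and 3RHet both were higher in all 4. For XHet the direction turned in the higher-scoring 50% of each list, where the mean difference was -6.69 points and lay below 0 in 4 of 4 replicates. That filter selects on the score itself, and it left 7, 8, 5 and 3 XHet regions in replicates 1 to 4.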

How the data were processed

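HP1a ChIP-seq data of 4 ChIP samples were used as the authors' lists of enriched regions, 1 per sample and 1 combined. Read counts were not used here, so depth and its effect on the lists are unknown. Precision is limited by the number of lists and by the number of regions that each holds on a scaffold. Per the submitters' processing notes reads were aligned with Bowtie 0.12.7, and per the file headers the build is FlyBase release 5. Each region carries the authors' deposited score, a column without a unit. The sources used here do not state the caller, its threshold or the making of the combined set. Start and end are deposited as base positions.

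Regions past a scaffold's end were clipped. On XHet and YHet these were 2 in replicates 1 and 2 each, 0 in replicates 3 and 4 and 2 in the combined set; on the autosomal Het scaffolds they were 2, 4, 1 and 2 in replicates 1 to 4 and 3 in the combined set. Quantities were formed within each replicate. Log2 ratios or differences were compared with 0 by exact permutation of their signs (two-sided), and the 11 p-values were adjusted by the Benjamini-Hochberg method. Named regions are, per scaffold, the 5 highest combined scores, the 3 widest, those found in no replicate, and the 3 longest stretches covered in all or in none; others were named after their values were seen. The members and comparisons were chosen with earlier results of these data known. Alternatives were score and width filters, merging, stricter overlap, other windows and leaving out replicates. Coverage code was tested on simulated lists. Python 3.11.15, NumPy 2.4.6, SciPy 1.17.1 and Matplotlib 3.10.9 were used.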

Additional observations from a re-analysis of the deposited data

Results flagged for a closer look

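Dixon's test for 4 samples was applied to 37 values. In 4 of them a single replicate lay apart from the rest, where chance gives about 1 in 20 for continuous values. For XHet the median region width of replicate 4, from 4 regions, was 10652.5 bp, and that of the remaining replicates 4514 to 5333 bp. The covered share of YHet in replicate 1 was 28.0%, below the 41.7% to 43.3% of the remaining replicates. In the combined-set region of YHet at 64187 to 65187, replicate 4 covered 59.9% and no other replicate any base. In that at 271989 to 273073, replicate 4 covered 63.4% and no other replicate any base.
In these last regions the remaining replicates are exactly 0, so the test's ratio is fixed and the chance rate does not apply. By the count of overlaps, 3 of the 13 XHet and 3 of the 42 YHet regions of the combined set were overlapped in exactly 1 replicate, against 12% of the whole set.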

How the results depend on the processing

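Of 125 alternatives computed for the 11 tests and the 2 counts of shared regions, 120 kept direction, or for counts stayed within 1.5 times. Direction here is the sign of the mean over replicates, and all alternatives reuse the same lists. Counts over fewer replicates cannot fall below those over all 4. With 4 replicates or fewer no test could pass 0.05, so a kept direction is all that the alternatives show for the tests. The median score percentile of XHet minus the autosomal Het scaffolds reversed in the higher-scoring 50% of each list, at -6.69 points against 4.66. This filter acts on the score itself. The median width of XHet over those scaffolds reversed without replicate 4, and its mean log2 ratio ranged from -0.003 to 0.41 over the lists with 1 replicate left out. Combined-set regions found in all 4 replicates numbered 0 of 13 on XHet and 5 of 42 on YHet with reciprocal overlap of at least 50%. By the main rule they numbered 2 of 13 and 20 of 42. Over the whole set the share was 30.8% with the stricter rule and 47.1% with the main one. In both replicates 1 and 2, 6 of 13 XHet and 25 of 42 YHet regions were found, where the share over the whole set was 63.7%. The cause was not tested, except that the stricter overlap rule passes fewer regions by construction. No paired analysis was possible because the input samples, which share replicate numbers with the ChIP samples, have no lists of their own here. Every ratio was formed within a replicate. Without the last 20 kb of XHet, a choice made after seeing the data, the mean log2 ratio of its median width to the autosomal Het scaffolds was 0.65, above 0 in 3 of 4 replicates. Score percentiles were not recomputed for merged regions, which have no score of their own.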

Other observations

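The last 10 kb of XHet were covered over 100%, 100%, 0% and 0% in replicates 1 to 4, and those of 2RHet over 27.3%, 55.4%, 0% and 0%. The last 10 kb of YHet were covered over 19.5%, 67.3%, 68.0% and 50.3%, those of 2LHet over 100%, 100%, 81.5% and 92.7%, those of 3LHet over 40.0%, 86.8%, 55.9% and 67.3%, and those of 3RHet over 0%, 14.1%, 15.0% and 12.2%.

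The combined set held regions narrower than any in the replicate lists, whose smallest deposited width was 1301 bp against 1001 bp in the combined set. There were 8 of these on XHet and YHet, 1 and 7, of which 3 were overlapped in no replicate. Of the 47 regions at least 1301 bp wide on these scaffolds, 3 were overlapped in no replicate, 2 of 12 on XHet and 1 of 35 on YHet. Over the whole combined set the counts were 372 of 573 narrower regions and 369 of 5124 others. On YHet the 7 narrower regions had a median score of 1.29, and the 35 others 1.34. Over the whole set the medians were 0.689 and 0.966.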
